A study of Gallus gallus with 12 samples.

Results

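The transcripts described are those of 10 transcription factor genes that mark or specify neuron classes of the spinal cord: LHX1, VSX1, PROX1, ISL1, ISL2, LHX3, EVX1, EN1, POU4F1 and PAX2. Members were all chicken probe sets whose symbol in the array's annotation is one of these names. That gave 11 probe sets for 9 of the 10 genes, out of 37693 chicken probe sets tested. ISL1 and PAX2 had a pair of probe sets each and the other genes had 1. No probe set carried the symbol POU4F1. A probe set named POU4F1L, whose synonyms in the RefSeq gene table include Brn-3a, was read beside the members without being counted among them.

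Progenitors of the embryonic neural tube lie in domains along the dorsoventral axis, each of which gives rise to its own class of neurons. As a cell leaves the cell cycle it switches on homeodomain factors that fix its class, such as ISL1, ISL2 and LHX3 in motor neurons, EVX1 in V0, EN1 in V1 and LHX3 in V2 interneurons. LHX1 and PAX2 are shared by several interneuron classes. VSX1 is known from V2 interneuron precursors of mouse and zebrafish, and PROX1 is a prospero-type homeodomain factor of cells about to leave the cell cycle. NEUROG2, a bHLH transcription factor of the proneural family, drives such progenitors to become neurons.

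Chick embryos of stages HH10 to HH11, with 11 to 15 somites by the design text and a narrower range within that by the growth protocol, were electroporated inside the egg in the neural tube. The plasmid carried GFP alone (control, pGIG-GFP), NEUROG2 with GFP (pCIGNEUROG2-GFP) or NEUROG2AQ with GFP (pCIGNEUROG2AQ-GFP). GFP-positive cells were sorted 6 hours later, so every group, controls included, had been electroporated, dissociated and sorted. The labels do not say what the AQ change is. In other work the name denotes a NEUROG2 altered in the basic region through which it contacts DNA. Each group had 4 Affymetrix arrays, and each array held RNA from the pooled neural tubes of 20 embryos, so a value averages over all domains and embryos of a pool. The labels give neither the promoter of the plasmids nor the share of cells in each domain.

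Signals are the authors' RMA values on a log2 scale, on which a difference of 1 is a doubling. They carry no detection call. A background level was therefore set per array as the 95th percentile of 687 probe sets that are not for chicken sequences. It lay between 2.29 and 2.43. The median of all tested probe sets lay between 2.81 and 2.90, and the number of arrays, 4 a group, limits the precision. All 7 measured neural tube markers were above background on all 12 arrays, and their mean signal was 8.51 to 8.68 in control, 7.70 to 7.90 in NEUROG2 and 8.14 to 8.24 in NEUROG2AQ arrays. The array's NEUROG2 probe set read 5.28 to 6.07 in control, 3.69 to 4.10 in NEUROG2 and 4.56 to 4.77 in NEUROG2AQ arrays. It was thus lowest where the labels put added NEUROG2, and it does not check which plasmid an array received, because the labels give neither the species of the insert nor the part of the transcript that the probes match. Control replicate 1 stood apart in markers of neighbouring tissues, which are given beside the members concerned. Control replicate 4 was the highest of the 12 arrays in the mean of 15 blood and endothelium markers. It read 3.41 (log2) on that list, against 2.63 to 2.98 in the other controls. NEUROG2 arrays read 2.65 to 2.79 and NEUROG2AQ arrays 2.57 to 2.73. Of the 15 markers, 8 were at or below background on all 12 arrays. NEUROG2AQ replicate 4 stood apart from its own group in RNA quality, as the 3' minus 5' signal of actin and EF1A. It read 1.52 (log2) against 2.03 to 2.14 in the other arrays of its group. Control and NEUROG2 arrays read 1.72 to 1.98 and 1.59 to 1.90. NEUROG2AQ replicates 1 to 3 thus lay above every array of the other groups, and replicate 4 below them all. Without replicate 4, this measure separates NEUROG2AQ fully from the other groups. Its part in the comparisons with NEUROG2AQ was not tested. Control replicate 1 and NEUROG2AQ replicate 4 are meant below by the arrays that stood apart. Without both, the same 3 members passed in each comparison in which they passed with them. Of all 37693 probe sets, 3682 then passed for NEUROG2 with control, against 2515 with all arrays. For NEUROG2 with NEUROG2AQ the counts were 2957 and 2286. Control replicate 4 was kept in that setting, which was chosen after seeing the data.

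Of the 11 member probe sets, 5 were above background on all 12 arrays (LHX1, VSX1, LHX3, EVX1 and the brighter PAX2 probe set). Both ISL1 probe sets were at or below it on all 12, and 4 were above it on some arrays only. Over all tested probe sets, 51.9% were above background on all 12 arrays. Levels of different probe sets are not compared with each other, since probes differ in how strongly they bind.

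**Figure D1:**
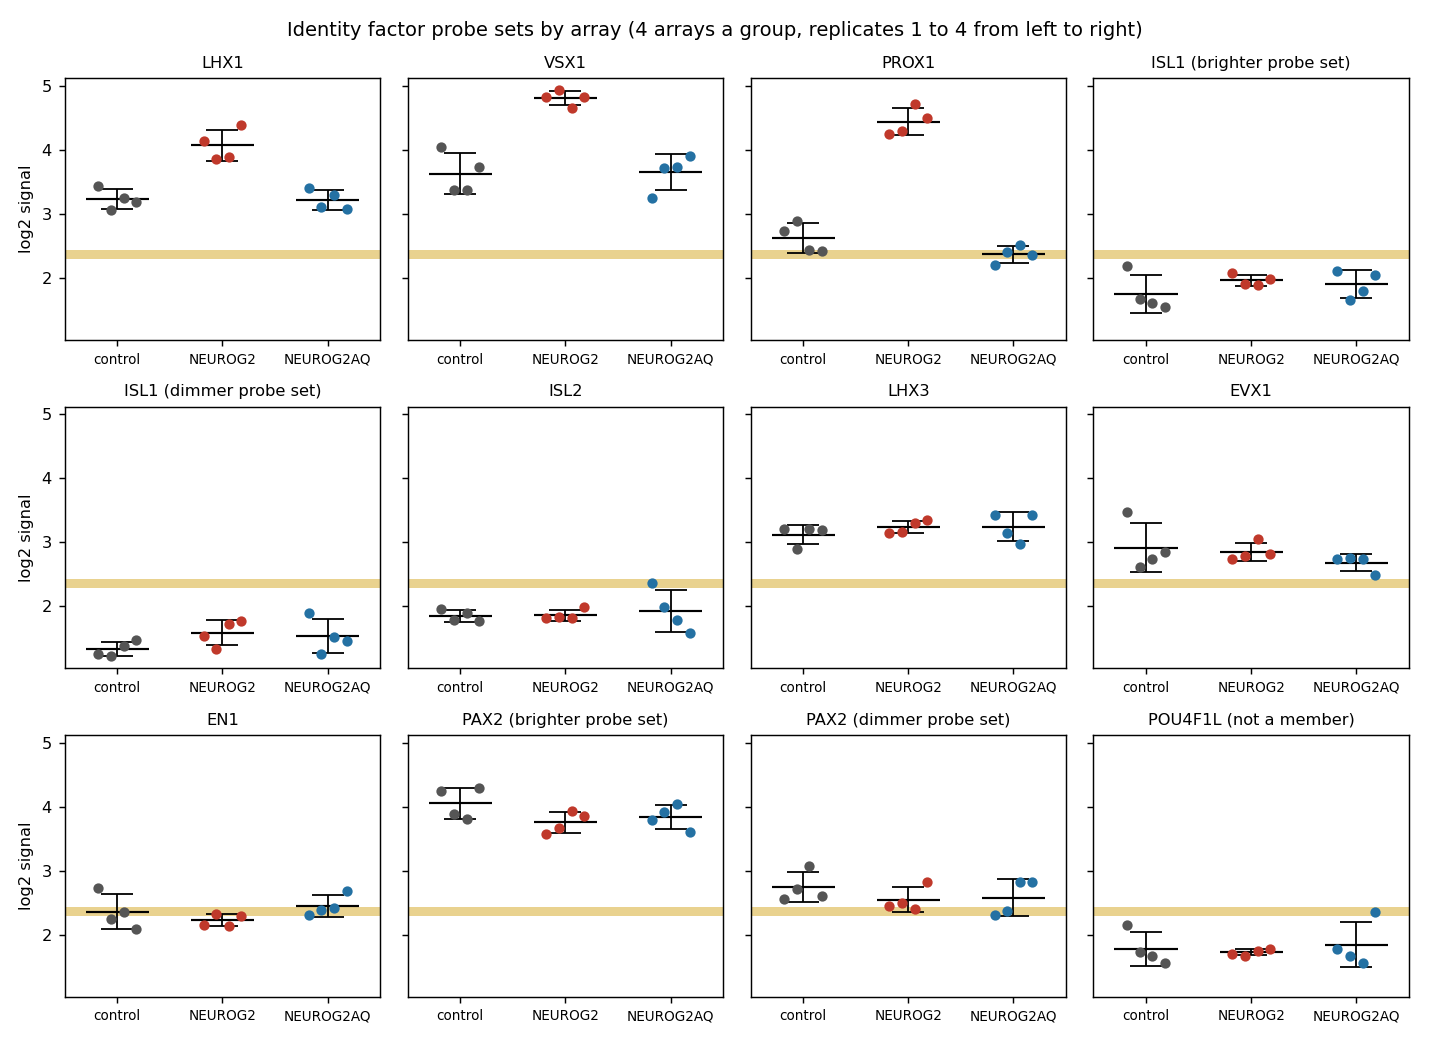
Log2 signal of each identity factor probe set on every array, with the replicates of a group from left to right, the mean as a horizontal bar and the SD as whiskers (n = 4). The yellow band spans the background levels of the 12 arrays (2.29 to 2.43). LHX1, VSX1 and PROX1 had every NEUROG2 array above every array of the other groups, and ISL1, ISL2 and POU4F1L lay at or under the band.

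NEUROG2 and control arrays were compared to find which identity factors change within hours of adding the factor. PROX1, VSX1 and LHX1 rose, and no member fell. These were 3 of 11 member probe sets past an adjusted p of 0.05 in limma, against 6.67% of all tested probe sets in either direction. All 3 were higher and none lower, where 3.3% of all tested probe sets were higher and 3.38% lower. In these same 3 the arrays of the groups did not overlap, against 11.1% of all tested probe sets. The median difference over the 11 was 0.12 on the log2 scale, against 0.01 over all tested probe sets. Members, and the gene lists below, were chosen with earlier results of these data known. Such counts beside the shares of all probe sets or genes are thus not independent tests. In RNA of sorted, mixed cells, more cells of a type and more transcript per cell cannot be told apart.

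PROX1, which in chick and mouse neural tube promotes cell cycle exit and differentiation, changed most among the members. Its log2 signals were 2.73, 2.89, 2.44 and 2.42 in control replicates 1 to 4 and 4.25, 4.29, 4.71 and 4.49 in NEUROG2 replicates 1 to 4. NEUROG2AQ replicates 1 to 4 read 2.20, 2.40, 2.51 and 2.35. All 4 NEUROG2 arrays were thus well above both other groups, while control arrays lay just above background and 2 of 4 NEUROG2AQ arrays at or below it. PROX1 rose from 2.62 ± 0.23 to 4.43 ± 0.21 (mean ± SD, n = 4), a log2 difference of 1.82 ± 0.13 (SE) or 3.52-fold, with an adjusted p of 4.57e-07. This difference ranked 100 from the highest of all 37693 probe sets. Because the control signals are close to background, the fold is uncertain.

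VSX1, a paired-type homeodomain factor, rose next most. Control replicates 1 to 4 read 4.04, 3.37, 3.37 and 3.73, and NEUROG2 replicates 1 to 4 read 4.82, 4.93, 4.66 and 4.82. NEUROG2AQ replicates 1 to 4 read 3.25, 3.72, 3.73 and 3.90. The NEUROG2 arrays lay within 0.27 of each other and above the highest control, which was replicate 1. VSX1 rose by 1.18 ± 0.16 (log2, SE, n = 4), 2.27-fold, with a 95% interval of the fold from 1.79 to 2.88 and an adjusted p of 0.000209. It ranked 264 among all probe sets. Without control replicate 1 the log2 difference was 1.32 with an adjusted p of 3.13e-05.

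LHX1, a LIM homeodomain factor of several dorsal and ventral interneuron classes and of a subset of limb motor neurons, showed the smallest of the 3 rises. Its log2 signals were 3.43, 3.06, 3.25 and 3.18 in control replicates 1 to 4 and 4.14, 3.86, 3.89 and 4.38 in NEUROG2 replicates 1 to 4. In NEUROG2AQ replicates 1 to 4 they were 3.41, 3.11, 3.29 and 3.07. The lowest NEUROG2 array was thus above the highest array of either other group. LHX1 rose by 0.84 ± 0.13 (log2, SE, n = 4), 1.79-fold, with a 95% interval of the fold from 1.48 to 2.17 and an adjusted p of 0.000709. It ranked 512 among all probe sets.

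**Figure D2:**
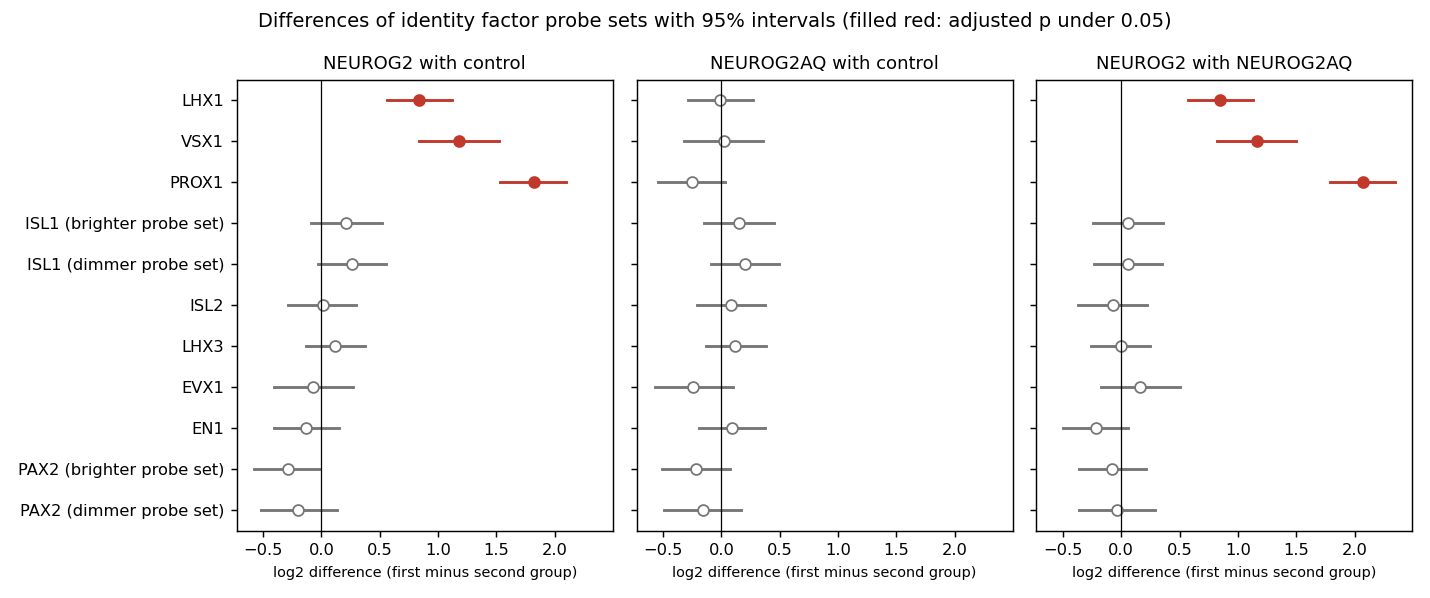
Log2 difference of each member probe set in the 3 comparisons, with limma's 95% interval as a line (n = 4 arrays a group). Filled red points passed an adjusted p of 0.05. PROX1, VSX1 and LHX1 passed against both control and NEUROG2AQ (0.84 to 2.07), and all other intervals lie between -0.58 and 0.55.

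The motor neuron factors did not pass. The LIM homeodomain factor ISL1 appears as motor neurons form. Its brighter probe set read 2.18, 1.66, 1.61 and 1.54 in control replicates 1 to 4, 2.07, 1.90, 1.89 and 1.98 in NEUROG2 replicates and 2.11, 1.65, 1.79 and 2.05 in NEUROG2AQ replicates. Its dimmer probe set read 1.22 to 1.47 in control, 1.33 to 1.77 in NEUROG2 and 1.25 to 1.89 in NEUROG2AQ arrays. All these values are at or below background and the groups overlap. NEUROG2 minus control differences were 0.21 ± 0.14 and 0.26 ± 0.14 (log2, SE, n = 4), with adjusted p of 0.503 and 0.359. Their 95% intervals reached up to 0.52 and 0.55. Without control replicate 1, the highest control for the brighter probe set, that difference was 0.36 (adjusted p = 0.08). A change of transcripts that stay under the array's background would not be detectable here.

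ISL2, which follows ISL1 in motor neurons, read 1.77 to 1.96 in control and 1.81 to 1.98 in NEUROG2 arrays. NEUROG2AQ arrays spanned 1.58 to 2.36, and replicate 1 of that group, the highest, was the only array of 12 above background. The NEUROG2 minus control difference was 0.01 ± 0.14 (log2, SE, n = 4; adjusted p = 0.991). LHX3, the LIM homeodomain partner of ISL1 in motor neurons and a factor of V2 interneurons, was above background on all 12 arrays. It read 3.20, 2.89, 3.20 and 3.19 in control replicates 1 to 4, 3.15, 3.16, 3.30 and 3.34 in NEUROG2 replicates and 3.42, 3.15, 2.97 and 3.43 in NEUROG2AQ replicates. The groups overlap, and the NEUROG2 minus control difference was 0.12 ± 0.12 (adjusted p = 0.703), with a 95% interval from -0.13 to 0.37. That interval leaves out a rise in signal of the size of LHX1, VSX1 or PROX1 (0.84 to 1.82). How closely the LHX3 signal follows its transcript was not tested.

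The V0 and V1 factors did not pass either. EVX1, an even-skipped homeodomain factor of V0 interneurons that is also active in the tail bud, read 3.47, 2.61, 2.73 and 2.84 in control replicates 1 to 4. NEUROG2 replicates 1 to 4 read 2.73, 2.78, 3.05 and 2.81, and NEUROG2AQ replicates 1 to 4 read 2.73, 2.76, 2.74 and 2.48. Control replicate 1 was the highest array of all 12. The NEUROG2 minus control difference was -0.07 ± 0.16 (log2, SE, n = 4; adjusted p = 0.895), and 0.12 without control replicate 1 (adjusted p = 0.639), so its sign rests on that array.

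EN1, an engrailed homeodomain factor of V1 interneurons, also active at the midbrain-hindbrain boundary and in the somite's dermomyotome, read 2.73, 2.24, 2.36 and 2.09 in control replicates 1 to 4. NEUROG2 arrays read 2.14 to 2.32 and NEUROG2AQ arrays 2.30 to 2.69. Only 6 of 12 arrays were above background, with control replicate 1 the highest of all. The NEUROG2 minus control difference was -0.13 ± 0.13 (adjusted p = 0.702) and -0.01 without control replicate 1 (adjusted p = 0.982).

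Control replicate 1 had the highest control value for 7 of the 11 member probe sets, and for 10 of 11 measured somite markers. The same share over all tested probe sets was not computed, so the first count shows nothing particular to the members. Averaged over the 11 somite markers, that array read 4.37 (log2), against 3.22 to 3.67 for control replicates 2 to 4. NEUROG2 arrays read 3.20 to 3.68 on the same list, and NEUROG2AQ arrays 2.89 to 3.32. For 8 tail bud and primitive streak markers, EVX1 itself left out, the average was 5.54 against 4.77 to 5.15, and for 9 notochord and floor plate markers 5.24 against 4.55 to 4.71. NEUROG2 arrays read 4.35 to 4.77 and 4.32 to 4.69 on these last lists, and NEUROG2AQ arrays 4.75 to 5.17 and 4.38 to 4.63. All somite markers but TBX18 and PAX9 exceeded background on at least 1 array. The part of these tissues in the EVX1 and EN1 values was not tested.

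**Figure D3:**
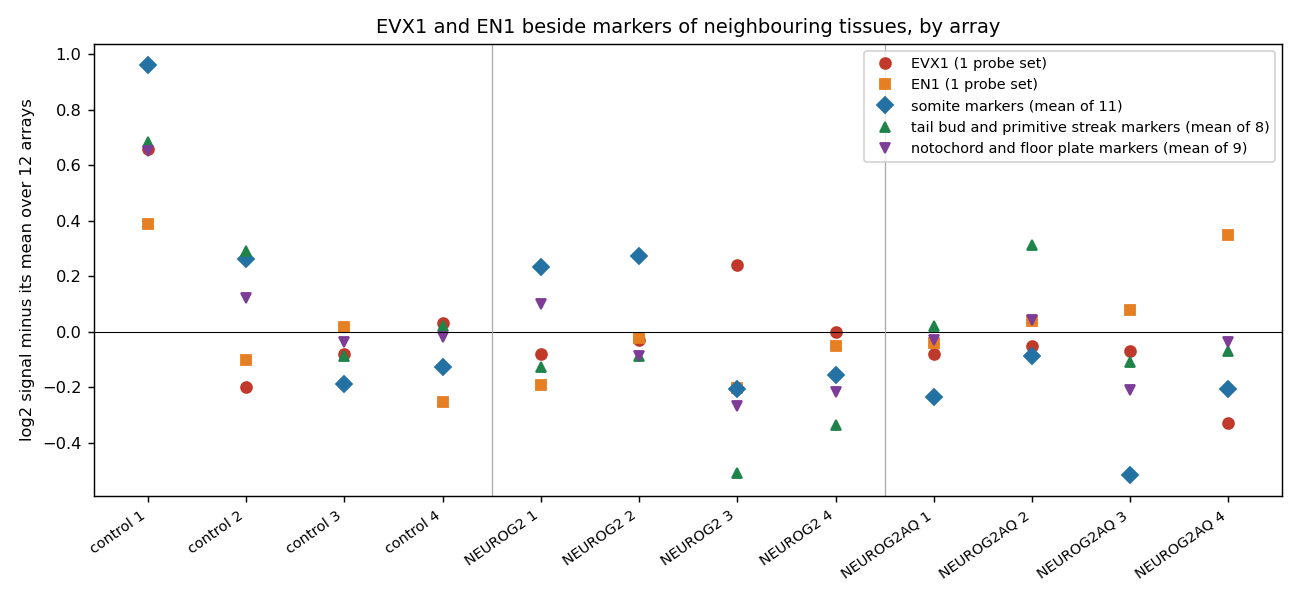
EVX1, EN1 and the mean of each of 3 marker lists on every array, each as log2 signal minus its own mean over the 12 arrays. Vertical lines part the groups. On control replicate 1 all 5 lie above their mean and have their highest values (EVX1 3.47, somite markers 4.37). For EN1 that value, 2.73, is close to the 2.69 of NEUROG2AQ replicate 4.

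PAX2, a paired-box factor of V0, V1 and dorsal inhibitory interneurons that also marks the kidney-forming mesoderm, did not pass in any comparison. Its means were below control with NEUROG2 and with NEUROG2AQ. Its brighter probe set read 4.24, 3.88, 3.81 and 4.29 in control replicates 1 to 4, 3.58, 3.67, 3.94 and 3.85 in NEUROG2 replicates and 3.80, 3.92, 4.04 and 3.60 in NEUROG2AQ replicates. The NEUROG2 arrays reach lower than the controls, but the groups overlap. The NEUROG2 minus control difference was -0.29 ± 0.14 (log2, SE, n = 4), with an unadjusted p of 0.0461 and an adjusted p of 0.278. Without control replicate 4, the highest array for this probe set, it was -0.21 (adjusted p = 0.537). The dimmer PAX2 probe set, which was above background on 10 of 12 arrays, read 2.56 to 3.08 in control and 2.40 to 2.83 in NEUROG2 arrays and differed by -0.20 ± 0.15 (adjusted p = 0.596). NEUROG2AQ minus control was -0.22 ± 0.14 for the brighter and -0.16 ± 0.15 for the dimmer probe set (adjusted p = 0.826 and 0.898). NEUROG2 minus NEUROG2AQ was -0.08 and -0.04. Of 4 measured markers of the kidney-forming mesoderm, only SALL1 passed with NEUROG2 against control, where 5.37% of genes fell. SALL1, also a gene of neural progenitors, fell by 0.79 ± 0.14 (adjusted p = 0.00166), from a mean of 9.53 to 8.74. The mean of the 4 was 3.91 to 4.02 in control, 3.55 to 3.64 in NEUROG2 and 3.72 to 3.87 in NEUROG2AQ arrays. EYA1 was at or below background on all 12 arrays and GATA3 above it on 2. The part of that tissue in the PAX2 values was not tested.

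POU4F1 marks sensory neurons and several dorsal interneuron classes. The POU4F1L probe set was at or below background on all 12 arrays, at 1.56 to 2.15 in control, 1.67 to 1.78 in NEUROG2 and 1.56 to 2.35 in NEUROG2AQ arrays. Its NEUROG2 minus control difference was -0.05 ± 0.16 (adjusted p = 0.924).

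The comparison of NEUROG2AQ with control asks whether the altered factor moves the same genes. No member passed in limma, where 0.0663% of all tested probe sets did, and none of the 11 had groups that do not overlap, against 3.97% of all tested probe sets. At an unadjusted p under 0.05 the count was also 0 of 11, against 6.89% of all tested probe sets. LHX1 differed by -0.01 ± 0.13 (log2, SE, n = 4; 95% interval -0.29 to 0.27) and VSX1 by 0.02 ± 0.16 (-0.32 to 0.36). For both, the upper bound lies below the lower bound of the NEUROG2 rise over control (0.56 for LHX1 and 0.84 for VSX1). PROX1 differed by -0.25 ± 0.13 (-0.54 to 0.03, adjusted p = 0.777), with control arrays at 2.42 to 2.89 and NEUROG2AQ arrays at 2.20 to 2.51. The remaining members differed by between -0.24 (EVX1) and 0.20 (the dimmer ISL1 probe set). Since few probe sets passed at all in this comparison, the absence of members among them says little about the members.

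NEUROG2 was compared directly with NEUROG2AQ to test whether the effects of these plasmids differ. The same 3 genes passed, all higher with NEUROG2, against 6.06% of all tested probe sets in either direction and 3.67% higher. In these 3 the groups did not overlap, against 12.4% of all tested probe sets. PROX1 was higher by 2.07 ± 0.13 (log2, SE, n = 4), 4.20-fold, with an adjusted p of 7.9e-08. As 2 of the 4 NEUROG2AQ arrays were at or below background for PROX1, this fold is uncertain too. VSX1 was higher by 1.16 ± 0.16, 2.23-fold (adjusted p = 0.000226), and LHX1 by 0.85 ± 0.13, 1.80-fold (adjusted p = 0.000605). The 4 NEUROG2 arrays enter both this comparison and that with control, so the agreement of the values is not independent evidence. Among the other members the differences ran from -0.22 (EN1, adjusted p = 0.459) to 0.16 (EVX1, adjusted p = 0.705).

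For each of the 3 genes that rose, the genes whose signal followed it most closely over the 12 arrays were sought among 16963 named probe sets with a mean above background. The measure was Pearson's r, which here largely reflects the step between NEUROG2 and the other groups. PROX1 was followed most closely by ATP2A3 (r = 0.990), a calcium pump of the endoplasmic reticulum, BPIFB2 (0.989) and CITED4 (0.988), a transcriptional co-regulator. ATP2A3 averaged 4.05 with the control plasmid, 8.02 with NEUROG2 and 3.43 with NEUROG2AQ. LHX1 was followed by FAAH (0.972), which breaks down fatty acid amides, MASP1 (0.972), a protease of the complement system, and NCS1 (0.966), a neuronal calcium sensor. VSX1 was followed by MYO1D (0.962), an unconventional myosin, AMER1 (0.961), a WNT pathway regulator, and CAMK1G (0.961), a calcium-dependent kinase. None of these 9 genes is a member or a gene of the lists below.

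Among other interneuron factors none passed as higher against control. Of 39 further interneuron factors, 22 were measured. With NEUROG2 against control 0 rose, where 5.21% of genes did, and 2 fell, where 5.37% of genes did. The other 20 did not pass, and the median was 0 against 0.01 over all genes. Several of the 22 were at or below background on all 12 arrays, where a rise could go unseen. The orphan receptor gene NR2F2 fell by 0.90 ± 0.12 (log2, SE; adjusted p = 0.000245), and FOXD3, a V1 factor that also marks neural crest, fell by 0.77 ± 0.21 (adjusted p = 0.0369). Of 12 measured neural crest markers, FOXD3 itself among them, 5 fell with NEUROG2 against control, where 5.37% of genes did. The 5 were SOX10, SNAI2, MSX1, LMO4 and FOXD3, so neither this count nor the mean of the list is independent of FOXD3. The mean signal of the 12 was 5.39 to 5.73 in control, 4.92 to 5.20 in NEUROG2 and 5.52 to 5.73 in NEUROG2AQ arrays. CDH6 was at or below background on all 12 arrays. The part of crest cells in the FOXD3 value was not tested. Without both arrays that stood apart, a setting chosen after seeing the data, 4 of the 22 fell, where 8.45% of all genes did.

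LHX5, the closest relative of LHX1 and a factor of the same interneuron classes, averaged 2.15 with the control plasmid, 2.60 with NEUROG2 and 2.02 with NEUROG2AQ. It was above background on 5 of 12 arrays. It was higher with NEUROG2 than with NEUROG2AQ by 0.58 ± 0.15 (adjusted p = 0.0268) and differed from control by 0.45 without passing (adjusted p = 0.091). Beside LHX5, which was higher, FOXD3 and NR2F2 were lower in NEUROG2 than in NEUROG2AQ arrays, by -1.15 ± 0.21 and -0.53 ± 0.12, and 19 of the 22 did not pass. Of all genes, 5.55% were higher and 4.14% lower in that comparison.

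Motor neuron and cholinergic genes outside the members did not pass as higher. Of 24 listed, 17 were measured. With NEUROG2 against control none rose, where 5.21% of genes did, 1 fell, where 5.37% of genes did, and 16 did not pass. Some of the 17 were at or below background on all 12 arrays, where a rise could go unseen. ETV5, an ETS factor also controlled by FGF signals, fell by 0.67 ± 0.16 (adjusted p = 0.0201). None of the 17 passed with NEUROG2AQ against control, where 0.108% of genes did. None passed between NEUROG2 and NEUROG2AQ, where 5.55% of genes were higher and 4.14% lower. Without both arrays that stood apart, 1 was higher with NEUROG2 than with NEUROG2AQ, where 6.07% of genes were. MNX1, the homeodomain factor most specific to motor neurons, averaged 3.30 with the control plasmid, 3.20 with NEUROG2 and 2.93 with NEUROG2AQ (NEUROG2 minus control -0.10, adjusted p = 0.804). It was picked out after its values were seen.

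**Figure D4:**
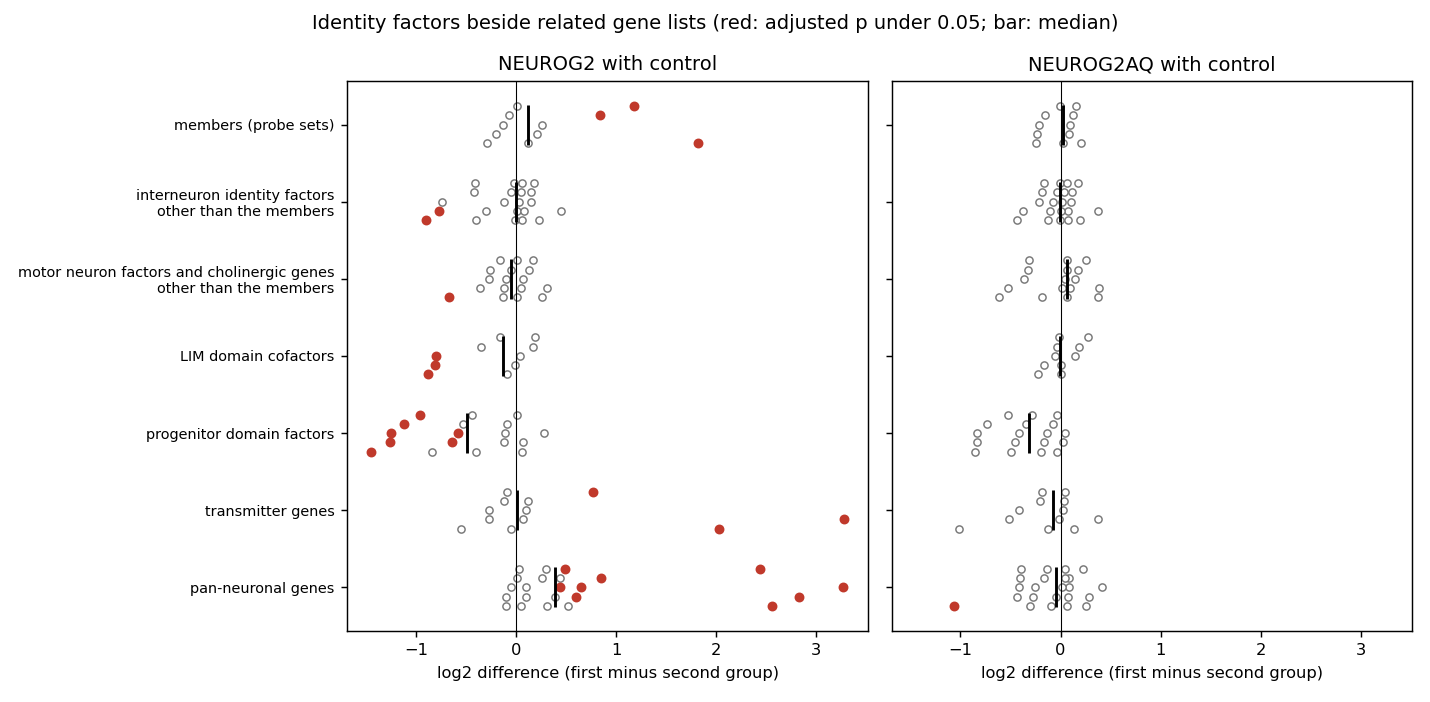
Log2 differences from control of the 11 member probe sets and of the measured genes of 6 related lists, with NEUROG2 (left) and NEUROG2AQ (right). Red points passed an adjusted p of 0.05 and black bars mark medians. With NEUROG2, progenitor domain factors lie mostly to the left (median -0.49) and pan-neuronal genes to the right (median 0.39), while further interneuron and motor neuron factors centre near 0.

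LIM homeodomain factors act in complexes with LDB proteins, and LMO proteins compete for that partner. Of 10 measured LIM cofactor genes, 3 fell with NEUROG2 against control, none rose and 7 did not pass, where 5.37% of genes fell. All 3 were LMO genes. LMO2, above background on 6 of 12 arrays, did not pass (0.04, adjusted p = 0.953). LDB1 was at or below background on all 12 arrays. LDB2 averaged 6.30, was above background on all 12 and did not pass (0.19 ± 0.14, adjusted p = 0.543). LMO4 fell by 0.88 ± 0.12 (adjusted p = 0.000169), LMO1 by 0.81 ± 0.15 (adjusted p = 0.00377) and LMO3 by 0.80 ± 0.13 (adjusted p = 0.000839). The same 3 were lower in NEUROG2 than in NEUROG2AQ arrays, by -1.06, -0.64 and -0.58, where 4.14% of genes were lower. LMO4 is also one of the crest markers given above. No LIM cofactor passed between NEUROG2AQ and control, where 0.108% of genes did.

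Factors of neural tube progenitor domains fell in part. Of 18 measured, 7 fell with NEUROG2 against control, where 5.37% of genes did, none rose and 11 did not pass, with a median of -0.49. The 7 were MSX1, MSX2, PAX6, PAX7, SP8, GLI3 and DBX2. With all 12 arrays, the ventral factors NKX6-1 (0.01, adjusted p = 0.983), OLIG2 (-0.53, adjusted p = 0.101) and NKX6-2 (-0.40, adjusted p = 0.233) did not pass. FOXA2, also a notochord and floor plate marker, did not pass either (-0.84 ± 0.25, adjusted p = 0.0605). Its difference was larger than that of PAX7 (-0.58 ± 0.10), which passed, so the threshold does not part ventral from other factors by size. Without both arrays that stood apart, 7 fell and 1 rose, where 8.45% of genes fell and 6.54% rose. MSX2 (-1.45 ± 0.13), SP8 (-1.26 ± 0.15) and PAX6 (-1.25 ± 0.12) fell most. With NEUROG2AQ none passed, where 0.108% of genes did, but the median was also below 0, at -0.32. Between NEUROG2 and NEUROG2AQ, 5 were lower, where 4.14% of genes were, and none higher, where 5.55% of genes were.

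Genes that mark neurons of any class rose in part. Of 23 measured pan-neuronal genes, 9 rose with NEUROG2 against control, where 5.21% of genes did, none fell and 14 did not pass, with a median of 0.39. Of those that did not pass, SNAP25, GAP43 and NEUROD1 were at or below background on all 12 arrays, where a rise could go unseen. Others were above background on all 12, with differences from 0.03 (RUNX1T1, adjusted p = 0.932) to 0.52 (DCX, adjusted p = 0.0604). TAGLN3 (3.27 ± 0.15), NEFM (2.83 ± 0.12), a neurofilament subunit, and NHLH1 (2.56 ± 0.16), a helix-loop-helix factor of newborn neurons, rose most. Against NEUROG2AQ 11 were higher and none lower, where 5.55% of genes were higher. TAGLN3 alone fell with NEUROG2AQ against control, by 1.06 ± 0.15 (adjusted p = 0.0161), where 0.108% of genes passed in either direction.

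Of 12 measured transmitter genes, 3 rose with NEUROG2 against control, where 5.21% of genes did, and 9 did not pass. PENK (3.28 ± 0.24), the precursor of enkephalins, and TAC1 (2.03 ± 0.24), the precursor of substance P, rose most. SLC32A1, the vesicular transporter that loads GABA and glycine in inhibitory neurons, rose by 0.77 ± 0.19 (adjusted p = 0.0209) from 2.10, under background, to 2.87, so the size of its rise is uncertain. The same 3 were higher with NEUROG2 than with NEUROG2AQ, where 5.55% of genes were, PENK by 3.49 and TAC1 by 2.44. For SLC32A1 (adjusted p = 0.00726) the NEUROG2AQ mean of 1.96 was also under background, and no size is given. None of the 12 transmitter genes passed between NEUROG2AQ and control, where 0.108% of genes did. CHAT, a cholinergic gene above background on 11 of 12 arrays, did not pass with NEUROG2 against control (0.07, adjusted p = 0.831). Nor did NPY, above it on 11 (-0.55, adjusted p = 0.666), or GAD1, above it on 10 (-0.27, adjusted p = 0.515). The further cholinergic genes SLC18A3 and SLC5A7, named after their values were seen, were at or below background on all 12 arrays. So were GAD2, SLC6A5, SLC17A6 and SLC17A8. A rise of any of these could go unseen.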

How the data were processed

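The 12 Affymetrix arrays were grouped by their labels. The deposited table holds log2 signals per probe set that the authors made with RMA, since GCOS, RMA and affy are named, without versions, per the submitters' processing notes. Base 2 was inferred from the range of the values (0.49 to 13.97). Values were used as deposited. Of 38535 rows, 37693 chicken probe sets were tested and 842 left out. Symbols came from the platform's annotation, updated by gene identifier through the RefSeq table of GRCg7b, and 27166 probe sets had 1 symbol. In the lists each of 13008 genes was read from whichever of its probe sets had the highest mean. limma 3.58.1 in R 4.3.3 (lmFit, eBayes) fitted all 12 arrays with group as the only term. All tests were two-sided, and p-values were adjusted by Benjamini-Hochberg over the 37693 probe sets. The fit was tested on simulated data.

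Members, gene lists and rules were chosen with earlier results of these data known. Named genes are all members, per list and comparison the 3 largest changes past the threshold, and the 3 genes most like each member that passed. Outside this rule, further genes were named after their values were seen. They include MNX1, SLC18A3, SLC5A7, LDB1 and the dim markers TBX18, PAX9, EYA1, GATA3 and CDH6. They also include FOXA2, PAX7, GLI3, DBX2 and the ventral progenitor factors given above. LMO2, LDB2, SNAP25, GAP43, NEUROD1, RUNX1T1 and DCX were named in the same way. So were the transmitter genes CHAT, NPY, GAD1, GAD2, SLC6A5, SLC17A6 and SLC17A8. Same-numbered arrays did not deviate together in every pair (correlations -0.30 to 0.23), so numbers were not taken as pairs. Sequences of the members were not used here. Alternatives left out dim probe sets or single arrays, or changed the scaling, weights, variance prior, arrays fitted or block.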

Additional observations from a re-analysis of the deposited data

Results flagged for a closer look

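In 33 sets of 4 arrays (11 member probe sets in 3 groups), 3 had an array far from the others by Dixon's criterion. Chance flags about 1 in 20 such sets. LHX3 in control replicate 2 read 2.89, against 3.19 to 3.20 in the other controls. ISL2 in NEUROG2 replicate 4 read 1.98, against 1.81 to 1.83, all of them under background. EVX1 in NEUROG2AQ replicate 4 read 2.48, against 2.73 to 2.76.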

How the results depend on the processing

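PROX1, VSX1 and LHX1 stayed past the threshold and higher against control and against NEUROG2AQ under all 102 recomputed values. Over these, NEUROG2 minus control ran from 1.72 to 1.91, 1.10 to 1.32 and 0.74 to 0.91, with adjusted p up to 2.1e-05, 0.00121 and 0.00403. None of 444 recomputed values of the uncalled members passed, and 33 had the other sign. Signals near background limit what ISL1, ISL2, EN1 and the dimmer PAX2 probe set can show, and only 8 of 11 member probe sets were kept without the 40% dimmest, which leaves no value for the other 3 there. With the array median in place of the background level, 4 member probe sets lay above it on all arrays instead of 5.

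For NEUROG2 minus control, ISL2 was -0.02 after median centring and after cyclic loess, and -0.04 to 0.04 leaving out single arrays. EVX1 was 0.05 with array weights, 0.12 without both control replicate 1 and NEUROG2AQ replicate 4 (chosen after seeing the data), and -0.17 to 0.12 leaving out single arrays. For NEUROG2AQ minus control, LHX1 was 0.07 with array weights, 0.11 without both arrays and -0.07 to 0.06 leaving out single ones. EVX1 was 0.02 without both and -0.34 to -0.05 leaving out single ones, ISL2 was 0.23 and -0.07 to 0.19, and VSX1 -0.06 to 0.16 leaving out single ones. For NEUROG2 minus NEUROG2AQ, LHX3 was 0.02 with array weights, 0.06 without both arrays and -0.09 to 0.06 leaving out single ones. The dimmer PAX2 probe set was 0.02, 0.04 and -0.13 to 0.05 in the same order. Leaving out single arrays, ISL1 ran from -0.02 to 0.13 and -0.03 to 0.18 and ISL2 from -0.19 to 0.07. The cause was not tested.

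With replicate number as a block, 3, 0 and 3 member probe sets passed as before, with PROX1 at 1.82, VSX1 at 1.18 and LHX1 at 0.84 above control, and 2463, 28 and 2249 of all probe sets passed. Over all probe sets NEUROG2AQ with control gave 25 calls, but 44 with trend and robust, 8 with only its 8 arrays and 10 to 30 leaving out single arrays. It was 10 to 14 without control replicate 2 or any 1 NEUROG2AQ array. With 1 probe set per gene, fewer are tested, and 1579 passed for NEUROG2 with control and 1442 for NEUROG2 with NEUROG2AQ, against 2515 and 2286.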
